A study of Mus musculus with 16 samples.

Results

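The 38 genes described here take cells from G1 into S phase and copy their DNA. They were chosen by name from a list of G1/S and replication genes, as the rows of the deposited count table that carry those symbols, and all 38 were found among its 55401 genes. Earlier results of these data were known when they were chosen. By role they comprised the D-type cyclins and their kinases (5 genes), the E-type cyclins with Cdk2 and Cdc25a (4), the E2F factors and pocket proteins (7), origin licensing (9), helicase activation (3), synthesis at the fork (6) and nucleotide supply (4). The cells were MC38, a mouse colon adenocarcinoma line. Cells of genotype WT, tagged gNC in the sample titles, were compared with cells of genotype Ythdf2-KO, tagged gY2. Both tags were taken as names of guides, in which case the WT cells carry a guide too. Both groups were grown in DMEM with fetal bovine serum and antibiotics. The sources used here do not say how the knockout was made, whether each group is 1 clone or whether replicates were separate cultures. If they were not, p-values measure a spread that may be technical. Read counts per gene covered the input libraries of the m6A assay (3 WT, 3 Ythdf2-KO), made from fragmented polyadenylated RNA before immunoprecipitation. Peaks of N6-methyladenosine (m6A, a methyl mark on mRNA) came as 1 deposited list per genotype from 3 immunoprecipitated libraries each. A further list gave peaks of RNA pulled down from WT lysate with an antibody against YTHDF2 (RIP, 2 libraries with 2 inputs). YTHDF2 is a cytoplasmic protein that binds m6A and recruits deadenylases to the mRNA.

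Entry into S phase is driven by D-type cyclins, which activate CDK4 and CDK6 to phosphorylate the retinoblastoma protein RB. E2F transcription factors are then freed from RB and related pocket proteins, and they switch on cyclin E, nucleotide synthesis and replication genes. The origin recognition complex, CDC6 and CDT1 load the MCM2 to MCM7 ring on DNA in G1, and in S phase CDC45 and GINS turn the ring into a moving helicase, behind which polymerases, PCNA and histone chaperones work.

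The 6 input libraries held 45441281 to 50959555 counts each, and edgeR tested 18969 genes. Levels are given as CPM, counts scaled to a common library size. The targeted gene, Ythdf2, stood at 55.6 to 68.6 CPM in WT and 59.8 to 67.9 CPM in libraries labelled Ythdf2-KO (edgeR adjusted p = 0.809, log2 fold change 0.04). Counting whole genes takes in exons away from any edit, which leaves the labels unchecked, and those libraries are called KO-labelled. The libraries did not form 2 compact groups. A principal component holding 51.4% of variance put WT between -39.2 and -38.6, KO-labelled replicate 1 at -10.4, and the other two KO-labelled libraries at 64.0 and 63.2. Within WT, replicate 1 was the distant one, with a chi-square per degree of freedom of 30.3 and 28.6 against the other WT libraries, which were at 8.85 from each other. KO-labelled replicate 1 was at 30 from WT replicate 1 and at 46.9 and 48.1 from WT replicates 2 and 3. From KO-labelled replicates 2 and 3 it was farther, at 71.6 and 71.5, while those were at 9.67 from each other. Of 12 epithelial markers, 3 (Krt18, Epcam and Cldn7) were at 0 in every library, and all 12 summed to only 1.19 to 2.00 CPM. These 12 markers do not bear out the label of a carcinoma line, which was not tested against a reference profile. Fibroblast markers summed to 2119 to 2678 CPM in WT and 1505 to 2643 CPM in KO-labelled libraries. Leukocyte and endothelial markers summed to 14.6 to 16.1 and 9.54 to 12.5 CPM.

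G1/S and replication transcripts were mostly more abundant in the KO-labelled libraries. Of the 38 genes, 12 were higher at an edgeR adjusted p below 0.05, 0 were lower and 26 did not pass. Over all genes tested, 2.99% were called higher and 1.54% lower, 4.54% in either direction. The 12 were the cyclin genes Ccnd1, Ccnd3 and Ccne1, the E2F genes E2f1 and E2f8, the replisome genes Gins1, Gins2, Pola1 and Prim1, and the nucleotide synthesis genes Tyms, Rrm2 and Tk1. The fitted log2 fold change was above 0 in 35 of the 38 and below 0 in Ccnd2, Cdk4 and Rb1. Its median was 0.52, from -0.19 for Ccnd2 to 0.94 for Rrm2, beside a median of -0.01 over all genes tested, of which 49.3% were above 0.

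The 3 KO-labelled values lay above the 3 WT values in 28 of the 38 genes, below them in Rb1, and overlapped in 9. Over all genes tested those shares were 17.7% above and 16.2% below. At an unadjusted p below 0.05, edgeR placed 27 of the genes higher (16.9% of all genes) and 0 lower (12.6%), and DESeq2 called 26 higher and 0 lower after adjustment, beside 12.9% and 6.83% of the 16577 genes it gave an adjusted p. Calls at the adjusted threshold depended on single libraries. Without WT replicate 1, 2 or 3, or without KO-labelled replicate 2 or 3, edgeR called 0 of the 38 after adjustment, and the lowest edgeR adjusted p among them in each fit ran from 0.0521 to 0.160. The share of all genes past the adjusted threshold is not given for each of these 5 fits. The counts of 0 are therefore not read as particular to the 38. At an unadjusted p below 0.05 these 5 fits placed 24, 28, 27, 23 and 21 of the 38 higher, beside 14.5%, 12.6%, 10.9%, 10.6% and 10.4% of all genes. The fit without WT replicate 1 also placed 1 lower, beside 11.6%. Without KO-labelled replicate 1, edgeR called 30 higher, the 12 among them, and 1 lower (Ccnd2), where 19.3% of all genes were called higher and 16.1% lower. Of the called genes, Ccnd1, Ccnd3, E2f8, Gins2 and Tk1 share 83 to 2758 exonic bases with a gene on the other strand. In bulk RNA, more cells in S phase and more of a transcript per cell cannot be told apart.

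**Figure D1:**
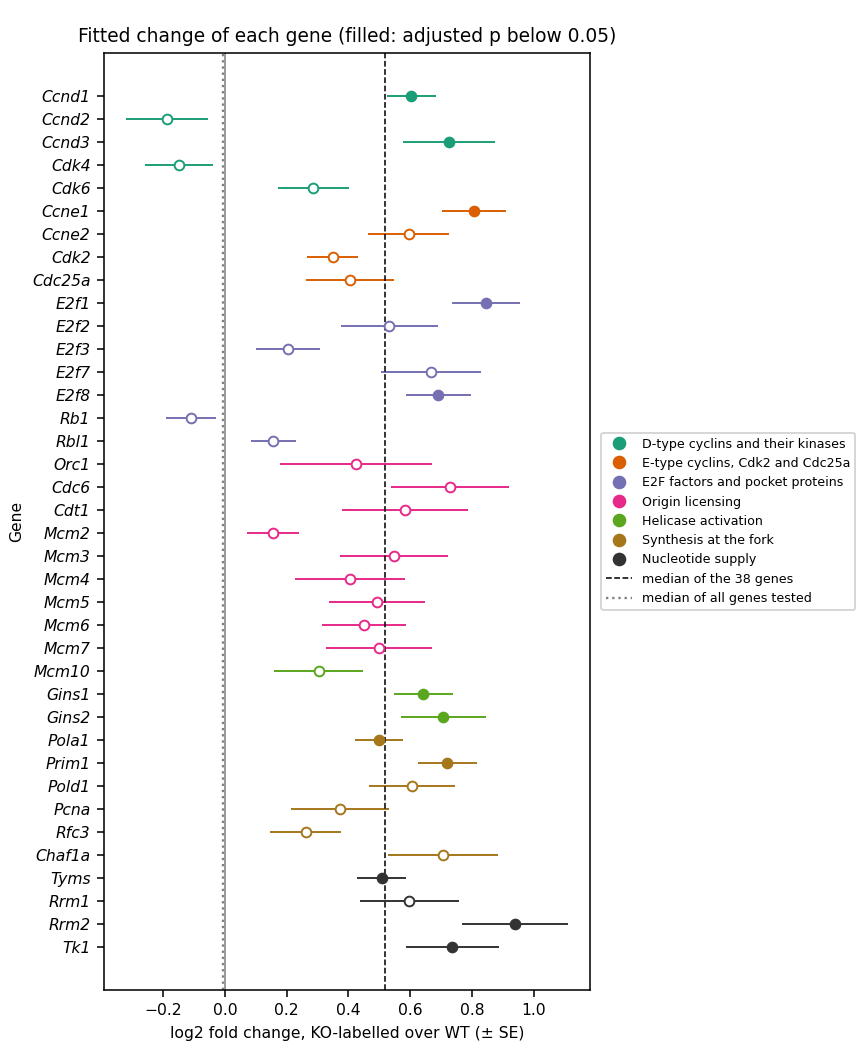
Fitted log2 fold change, KO-labelled over WT (x axis, ± SE), of each of the 38 genes (y axis), coloured by role. Filled points passed an edgeR adjusted p of 0.05. The dashed line marks the median of the 38 genes (0.52) and the dotted line that of all genes tested (-0.01). Only Ccnd2, Cdk4 and Rb1 lie left of 0.

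Of the 3 D-type cyclin genes, 2 were higher. Ccnd1 (ENSMUSG00000070348.5, mm10 chr7:144929931-144939925, minus strand), which encodes cyclin D1, measured 120.3, 133 and 122 CPM in WT and 179.5, 186 and 204 CPM in KO-labelled cells. All 3 KO-labelled values were above all WT values, and replicate 1 lay close to the other two. The log2 fold change was 0.60 (SE 0.08, edgeR adjusted p = 0.0227). Ccnd3 (ENSMUSG00000034165.16, chr17:47505051-47599691, plus strand), the cyclin D3 gene, was 63.2, 63.5 and 63.3 CPM in WT and 79.3, 116 and 119 CPM in KO-labelled cells. Its WT libraries were nearly equal, while KO-labelled replicate 1 was well below replicates 2 and 3. It rose by 0.73 on the log2 scale (SE 0.15, edgeR adjusted p = 0.0443). Ccnd2, the cyclin D2 gene, stood at 132, 116 and 109.6 CPM in WT and 126, 95.1 and 93.7 CPM in KO-labelled cells. Here the groups overlapped, because KO-labelled replicate 1 lay within the WT range (log2 fold change -0.19, SE 0.13, edgeR adjusted p = 0.378). Without that library it was lower, with a log2 fold change of -0.34 (edgeR adjusted p = 0.0195).

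The kinase genes did not pass. Cdk4 measured 395, 488 and 492 CPM in WT and 458, 398 and 384 CPM in KO-labelled cells. The lowest and highest values came from KO-labelled replicate 3 and WT replicate 3, with WT replicate 1 near the low end (log2 fold change -0.15, SE 0.11, edgeR adjusted p = 0.405). Cdk6, which pairs with the same cyclins, was 45.6, 45.7 and 45.0 CPM in WT and 45.9, 59.4 and 61.1 CPM in KO-labelled cells. KO-labelled replicate 1 was level with WT, and the log2 fold change of 0.29 (SE 0.12) had an edgeR adjusted p of 0.154. Per exon length, Cdk4 was the highest of the 38 in WT at 141 RPKM, and Cdk6 among the lowest at 3.25 RPKM. RPKM is CPM divided by the joined length in kilobases of all annotated exons of a gene.

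Of the 2 cyclin E genes, Ccne1 was higher. Ccne1 (ENSMUSG00000002068.16, chr7:38097984-38107534, minus strand), whose protein activates CDK2 at the start of S phase, was 20.2, 19.1 and 19.9 CPM in WT and 30.5, 37.5 and 35.6 CPM in KO-labelled cells. The gap between the groups exceeded the spread within either. It rose by 0.81 on the log2 scale (SE 0.10, edgeR adjusted p = 0.0227). Its paralog Ccne2 had a log2 fold change of 0.59 and fell just outside the threshold (edgeR adjusted p = 0.0504). Cdk2, the kinase partner, measured 62.3, 63.8 and 65.9 CPM in WT and 73.6, 83.6 and 87.3 CPM in KO-labelled cells. The groups did not overlap, yet the log2 fold change of 0.35 (SE 0.08) did not pass (edgeR adjusted p = 0.0552). Cdc25a, the phosphatase that activates CDK2, had 0.41 (edgeR adjusted p = 0.114), with KO-labelled replicate 1 at 31.6 CPM beside 28.8 to 30.9 CPM in WT.

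Among the E2F genes, an activator and a repressor passed. E2f1 (ENSMUSG00000027490.17, chr2:154559407-154569892, minus strand), an activator of S-phase genes, was 59.5, 57.9 and 58.0 CPM in WT and 87.9, 118 and 109.6 CPM in KO-labelled cells. WT values were tight and all KO-labelled values lay far above them. The log2 fold change was 0.85 (SE 0.11, edgeR adjusted p = 0.0227). E2f8 (ENSMUSG00000046179.17, chr7:48866429-48881596, minus strand), an atypical E2F that represses the same kind of promoter, was 25.4, 26.6 and 24.5 CPM in WT and 36.0, 43.8 and 43.8 CPM in KO-labelled cells. It rose without overlap, by 0.69 (SE 0.11, edgeR adjusted p = 0.0293). E2f7, the other atypical E2F, had a fold change of like size, 0.67, with an edgeR adjusted p of 0.0579. The activators E2f2 (0.53) and E2f3 (0.20) had edgeR adjusted p values of 0.0833 and 0.228.

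Neither pocket protein gene passed. Rb1, which encodes RB, measured 34.9, 34.3 and 32.0 CPM in WT and 31.4, 31.6 and 30.8 CPM in KO-labelled cells. It was the one gene of the 38 whose KO-labelled values all lay below WT, by a margin smaller than the WT spread (log2 fold change -0.11, SE 0.08, edgeR adjusted p = 0.393). Rbl1, the p107 gene, had 0.16 (SE 0.07, edgeR adjusted p = 0.192), with KO-labelled values of 80.0 to 84.5 CPM above 69.9 to 78.5 CPM in WT.

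**Figure D2:**
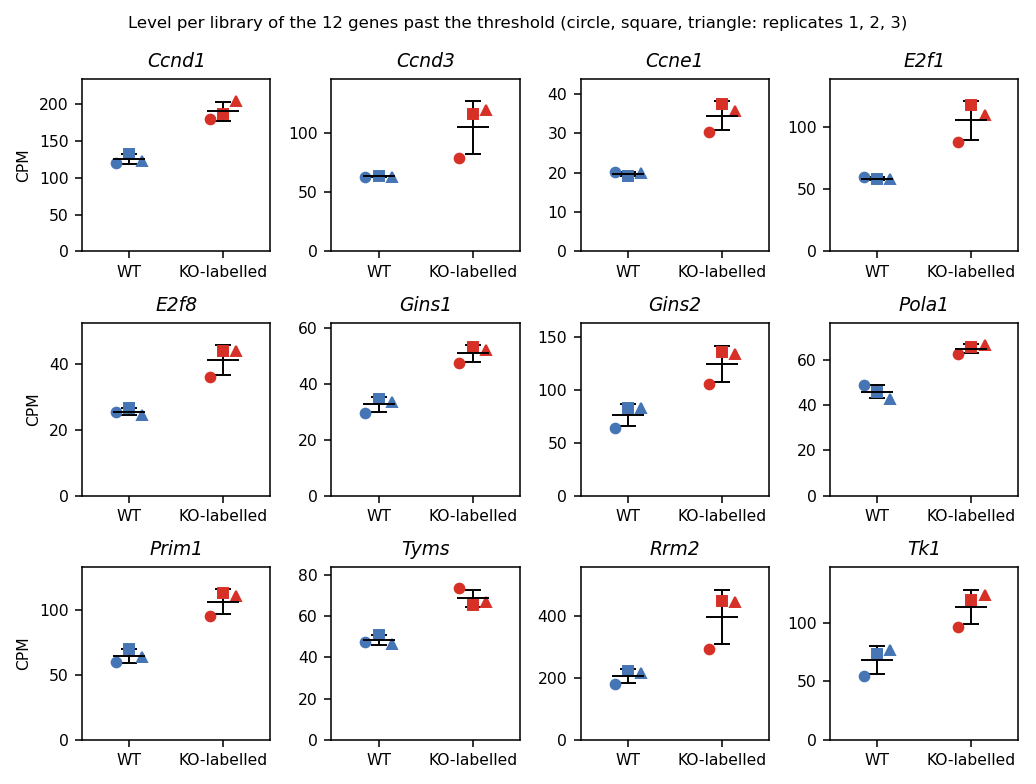
CPM (y axis, from 0) of the 12 genes past the threshold in each WT (blue) and KO-labelled (red) input library. Circle, square and triangle are replicates 1, 2 and 3, and bars are mean ± SD over n = 3. No panel has overlapping groups. KO-labelled replicate 1 is the lowest of its group except for Tyms.

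Origin licensing gave no call among its 9 genes, beside 2.99% of all genes called higher in edgeR. The fitted fold change was above 0 in all 9 (median 0.49, beside 0.52 for the 38, edgeR adjusted p from 0.0676 to 0.288). At an unadjusted p below 0.05, edgeR placed 6 of them higher, beside 16.9% of all genes. DESeq2 called 6 higher, beside 12.9% of the genes it gave an adjusted p. Cdc6, the loading factor, had the largest change: it measured 14.5, 20.1 and 21.6 CPM in WT and 24.5, 34.5 and 34.4 CPM in KO-labelled cells. Both groups had a low replicate 1, and the groups did not overlap (log2 fold change 0.73, SE 0.19, edgeR adjusted p = 0.0676). Mcm2, a ring subunit, had the smallest, with 169, 195 and 179 CPM in WT and 187, 209 and 208 CPM in KO-labelled cells. KO-labelled replicate 1 lay inside the WT range (log2 fold change 0.16, SE 0.08, edgeR adjusted p = 0.251). Orc1, a subunit of the origin recognition complex, and Cdt1, which delivers the ring, had 0.42 and 0.58, and in both KO-labelled replicate 1 fell among the WT values.

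The 6 MCM ring subunits are needed in equal numbers in the complex, and their levels are given here per exon length. That length joins all annotated exons of a gene, so it does not put the 6 on an equal scale. For Mcm2 it was 6956 bases, beside 3371 bases in the transcript with the longest coding sequence, and for Mcm4 3589 bases in both. In WT they ran from 24.1 RPKM for Mcm4 to 46.6 RPKM for Mcm7, and in KO-labelled cells from 29.0 RPKM for Mcm2 to 66.0 RPKM for Mcm7. Their log2 fold changes were 0.55 for Mcm3, 0.41 for Mcm4, 0.49 for Mcm5, 0.45 for Mcm6 and 0.50 for Mcm7, against 0.16 for Mcm2. Mcm7 showed the shared pattern, with 37.2, 52.0 and 50.8 RPKM in WT and 52.3, 71.9 and 73.7 RPKM in KO-labelled cells. WT replicate 1 was the lowest library, and KO-labelled replicate 1 was barely above WT replicates 2 and 3. A fit without KO-labelled replicate 1 called 8 of the 9 licensing genes higher in edgeR, the exception being Mcm2, where 19.3% of all genes were called higher.

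Of the helicase activation genes, both GINS genes passed. Gins1 (ENSMUSG00000027454.10, chr2:150905400-150931280, plus strand) measured 29.6, 34.8 and 33.5 CPM in WT and 47.5, 53.2 and 52.2 CPM in KO-labelled cells. KO-labelled replicate 1 lay with its group (log2 fold change 0.64, SE 0.09, edgeR adjusted p = 0.0285). Gins2 (ENSMUSG00000031821.11, chr8:120578633-120589304, minus strand) was 64.3, 82.7 and 82.7 CPM in WT and 105, 136 and 134 CPM in KO-labelled cells. Replicate 1 was low in both groups, with no overlap (log2 fold change 0.71, SE 0.14, edgeR adjusted p = 0.0398). Exons of Gins2 share 2758 bases with exons of Gse1 on the other strand, which had 0.58 (edgeR adjusted p = 0.0877), and the strand setting of the counting is not given, so reads of the pair may be mixed. Mcm10, which helps start the helicase, was 49.3, 71.0 and 66.5 CPM in WT and 68.5, 79.5 and 82.6 CPM in KO-labelled cells. The groups overlapped through KO-labelled replicate 1 (log2 fold change 0.30, SE 0.14, edgeR adjusted p = 0.209).

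At the fork, the 2 genes that passed encode parts of the primer-making polymerase alpha complex. Pola1 (ENSMUSG00000006678.6, chrX:93304767-93632155, minus strand), its polymerase subunit, measured 49.2, 46.2 and 43.1 CPM in WT and 62.9, 65.9 and 66.8 CPM in KO-labelled cells. Each group was compact (log2 fold change 0.50, SE 0.08, edgeR adjusted p = 0.0302). Prim1 (ENSMUSG00000025395.14, chr10:128015168-128030037, plus strand), the catalytic primase subunit, was 59.7, 69.8 and 63.8 CPM in WT and 95, 113 and 111 CPM in KO-labelled cells. It rose by 0.72 (SE 0.10, edgeR adjusted p = 0.0227), again without overlap. Pold1, the catalytic subunit of polymerase delta, and Chaf1a, a subunit of the histone chaperone CAF-1, had 0.61 and 0.71 but did not pass (edgeR adjusted p = 0.0541 and 0.0626). Chaf1a shares 4648 exonic bases with Ubxn6 on the other strand.

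Pcna, the sliding clamp, measured 256, 348 and 358 CPM in WT and 343, 454 and 449 CPM in KO-labelled cells. WT replicate 1 was the lowest, and KO-labelled replicate 1 was lower than WT replicates 2 and 3 (log2 fold change 0.37, SE 0.16, edgeR adjusted p = 0.169). Rfc3, a subunit of the clamp loader, had the smallest change of the fork genes, with 75.5, 94.1 and 98.4 CPM in WT and 97.4, 112 and 112 CPM in KO-labelled cells. Its groups overlapped, with KO-labelled replicate 1 above WT replicate 2 and just below WT replicate 3 (log2 fold change 0.26, SE 0.12, edgeR adjusted p = 0.180). Pcna stood at 134 RPKM in WT, next to Cdk4 at 141 RPKM at the top of the 38.

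Nucleotide supply held the largest change of the 38. Rrm2 (ENSMUSG00000020649.11, chr12:24708241-24714146, plus strand), the small subunit of ribonucleotide reductase made in S phase, measured 179.6, 222 and 215 CPM in WT and 293, 447 and 443 CPM in KO-labelled cells. KO-labelled replicate 1 lay between WT and the other two, and Rrm2 rose by 0.94 (SE 0.17, edgeR adjusted p = 0.0364). Tk1 (ENSMUSG00000025574.13, chr11:117815526-117826092, minus strand), the S-phase thymidine kinase, was 54.6, 73.3 and 76.9 CPM in WT and 96.9, 120.1 and 124 CPM in KO-labelled cells. It rose by 0.74 (SE 0.15, edgeR adjusted p = 0.0439). Tyms (ENSMUSG00000025747.12, chr5:30058202-30073617, minus strand), thymidylate synthase, was 47.6, 51.1 and 46.6 CPM in WT and 73.7, 65.8 and 67.2 CPM in KO-labelled cells. It was the one called gene in which KO-labelled replicate 1 was the highest library (log2 fold change 0.51, SE 0.08, edgeR adjusted p = 0.0298). Rrm1, the large subunit of the reductase, had 0.60 (edgeR adjusted p = 0.0704).

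**Figure D3:**
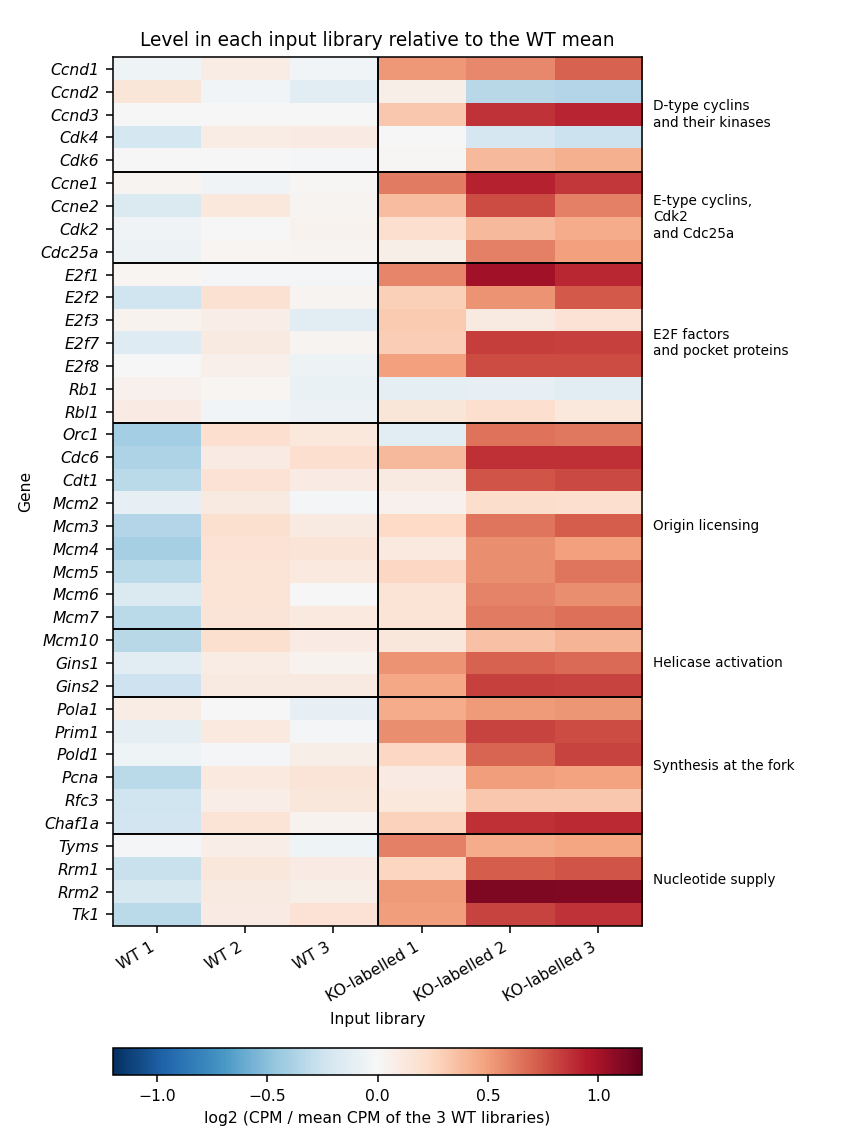
Level of each of the 38 genes (rows, grouped by role) in each input library (columns) as log2 of CPM over the mean of the 3 WT libraries. Blue is below and red above the WT mean. WT 1 is pale to mid blue through the licensing rows, and KO-labelled 1 is paler than KO-labelled 2 and 3 in most rows.

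Both libraries numbered 1 were low for these genes within their groups. WT replicate 1 was the lowest of the 6 libraries in 27 of the 38 genes (71.1%, against 17.4% of all genes tested) and in 9 of 9 licensing genes. Relative to the mean of WT replicates 2 and 3 its median log2 level was -0.24 over the 38 and -0.47 over the licensing genes, against 0.00 over all genes. KO-labelled replicate 1 lay above all 3 WT libraries in 28 genes (73.7%, against 31.2% of all genes). That held for 12 of the 12 called genes and for 5 of 9 licensing genes. Its median log2 level relative to WT replicates 2 and 3 was 0.49 over the 12 called genes and 0.03 over the licensing genes. KO-labelled replicates 2 and 3 both lay above all WT libraries in 35 of the 38 (92.1%, against 31.4% of all genes). The 12 calls were conditioned on a small spread within groups, so their place here follows in part from the test. The sum over fibroblast markers moved with these libraries, at 2643 CPM in KO-labelled replicate 1, 2678 CPM in WT replicate 1, 2119 and 2156 CPM in WT replicates 2 and 3, and 1505 and 1535 CPM in KO-labelled replicates 2 and 3. Most of that sum was Col3a1, at 2348 CPM in KO-labelled replicate 1 and 2314 CPM in WT replicate 1. Of the 8 fibroblast markers tested, edgeR called 0 higher and 1 lower, Dcn, with its lowest value of 29.0 CPM in KO-labelled replicate 1. Pdgfra was highest where the sum was lowest, at 184 and 183 CPM in KO-labelled replicates 2 and 3 and 138 to 145 CPM elsewhere. The part of these markers in the result was not tested.

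**Figure D4:**
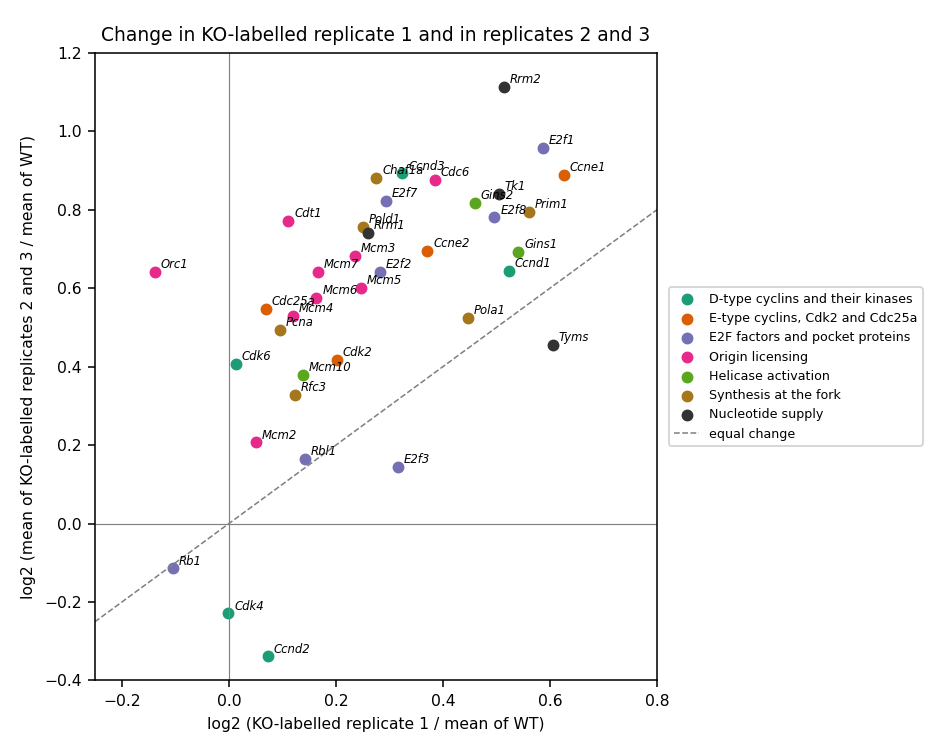
Each point is 1 of the 38 genes, coloured by role. The x axis is the log2 ratio of KO-labelled replicate 1 to the WT mean, the y axis that of the mean of KO-labelled replicates 2 and 3, and the dashed line marks equal change. Most points lie above the line. The licensing genes lie left of most called genes, with Orc1 below 0 on the x axis. Tyms, E2f3, Cdk4, Ccnd2 and, by a small margin, Rb1 lie below the line.

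Other genes of the same pathways were read from lists of their own. Those lists were chosen with earlier results of these data known, so they give no independent support. Of 52 further replication genes, 8 were higher and 0 lower (median log2 fold change 0.35), beside 2.99% and 1.54% of all genes tested. At an unadjusted p below 0.05, edgeR placed 32 higher and 2 lower, beside 16.9% and 12.6%. DESeq2 called 23 higher and 1 lower, beside 12.9% and 6.83% of the genes it gave an adjusted p. The 8 were Asf1b (0.92) and Nasp (0.43), which escort histones, Uhrf1 (0.90), which maintains DNA methylation at the fork, Ung (0.69), a uracil glycosylase, Pole2 (0.61) and Pold2 (0.54), polymerase subunits, Prim2 (0.50), the primase partner of Prim1, and Dbf4 (0.43), the activator of the CDC7 kinase. Of 20 other regulators of S-phase entry that were tested, Mybl2 (0.74) and Lin54 (0.51) were higher and 0 lower, beside 2.99% and 1.54% of all genes. With an unadjusted p below 0.05 in edgeR, 9 were higher and 1 lower, beside 16.9% and 12.6%. Mybl2 and LIN54 act together on late cell cycle genes. Of 26 genes of G2 and mitosis, 4 were higher (Mki67 0.63, Foxm1 0.49, Cenpa 0.40 and Plk1 0.35), 0 were lower, and 26 had a log2 fold change above 0 (median 0.38). Over all genes tested, 2.99% were called higher and 1.54% lower, and 49.3% were above 0. At an unadjusted p below 0.05, edgeR placed 22 of the 26 higher and 0 lower, beside 16.9% and 12.6%.

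Of 7 genes of CDK inhibitors, which hold cells in G1, 1 was higher and 0 lower in edgeR, beside 2.99% and 1.54% of all genes. At an unadjusted p below 0.05, 2 were higher and 0 lower in edgeR, beside 16.9% and 12.6%. Cdkn2d, the p19 INK4 gene, was the 1 that passed, with 53.2, 55.5 and 60.1 CPM in WT and 72.7, 130.4 and 128 CPM in KO-labelled cells. KO-labelled replicate 1 was again nearer WT (log2 fold change 0.97, SE 0.21, edgeR adjusted p = 0.0497). Cdkn1a, the p21 gene, measured 51.0, 52.1 and 50.9 CPM in WT and 43.1, 101.1 and 90.5 CPM in KO-labelled cells. KO-labelled replicate 1 was the lowest of the 6 libraries and the other two the highest (log2 fold change 0.61, SE 0.28, edgeR adjusted p = 0.194). The remaining 5 did not pass either: Cdkn2c had 0.26, Cdkn1b -0.10, Cdkn2b -0.16, Cdkn2a -0.22 and Cdkn1c -0.54, with edgeR adjusted p values from 0.0750 to 0.606. KO-labelled values of Cdkn2a all lay below WT.

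The deposited peak lists marked most of the 38 transcripts with m6A and fewer with YTHDF2. A WT m6A peak was listed for 31 of the 38 genes and a KO-labelled m6A peak for 31, beside 48.7% and 45.0% of all genes tested. Listing of a peak depends on expression. Among the 8315 genes within the range of mean levels of the 38, those shares were 77.9% and 75.4%. A RIP peak was listed for 17 of the 38, beside 34.3% of all genes and 54.0% of those in the same range of levels. Of the 12 called genes, 10 had a WT m6A peak and 4 a RIP peak (E2f8, Gins2, Rrm2 and Tk1). Each list covers a group as a whole and gives no error between replicates. Intervals on shares cover counting error only.

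Most m6A peaks of the 38 were listed in both genotypes. Of the 53 WT peaks, 45 (84.9%, exact 95% interval 72.4 to 93.3) shared at least 1 exonic base with a KO-labelled peak, beside 80.3% over all genes. Of the 49 KO-labelled peaks, 45 (91.8%, 80.4 to 97.7) shared a base with a WT peak, beside 89.3%. By the position of their centres, 24 WT peaks lay in coding sequence, 23 in the 3′ untranslated region (UTR), 4 in the 5′ UTR, and 2 could not be placed on the transcript used. The centre was taken over those bases of a peak that lie on that transcript. For some peaks these were a small part, such as 1.1% for a Ccnd2 peak counted as coding. Of the 51 placed, 20 (39.2%) were centred within 200 bases of the stop codon, beside 25.6% of such peaks over all genes.

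Most RIP peaks of the 38 genes shared no base with a WT m6A peak. Of the 53 WT m6A peaks of the 38 genes, 17 (32.1%, exact 95% interval 19.9 to 46.3) shared a base with a RIP peak, beside 48.3% over all genes. Of the 69 RIP peaks, 19 (27.5%, 17.5 to 39.6) shared a base with a WT m6A peak, beside 34.2% over all genes. The 53 include peaks of 16 genes without a RIP peak, and the 69 those of 2 genes without a WT m6A peak. Neither share therefore measures overlap within transcripts that carry both. RIP peaks were centred in coding sequence in 33 cases and in the 3′ UTR in 34, and 7 of the 67 placed (10.4%) lay within 200 bases of the stop codon. Cdk6 had the most, with 9 RIP peaks, each in its long 3′ UTR and none sharing a base with its 1 WT m6A peak, which lay at the end of its coding sequence. E2f3 had 8 RIP peaks, E2f2 and E2f7 had 7 each, Mcm10 had 6 and E2f8 had 5. E2f7 and Mcm4 had RIP peaks and no m6A peak in either genotype. E2f8 had 2 m6A peaks in WT and 4 in KO-labelled cells, both WT peaks sharing bases with RIP peaks. Peaks of neither WT m6A nor RIP were listed for Ccnd3, Cdk2, Mcm7, Pold1 and Tyms.

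**Figure D5:**
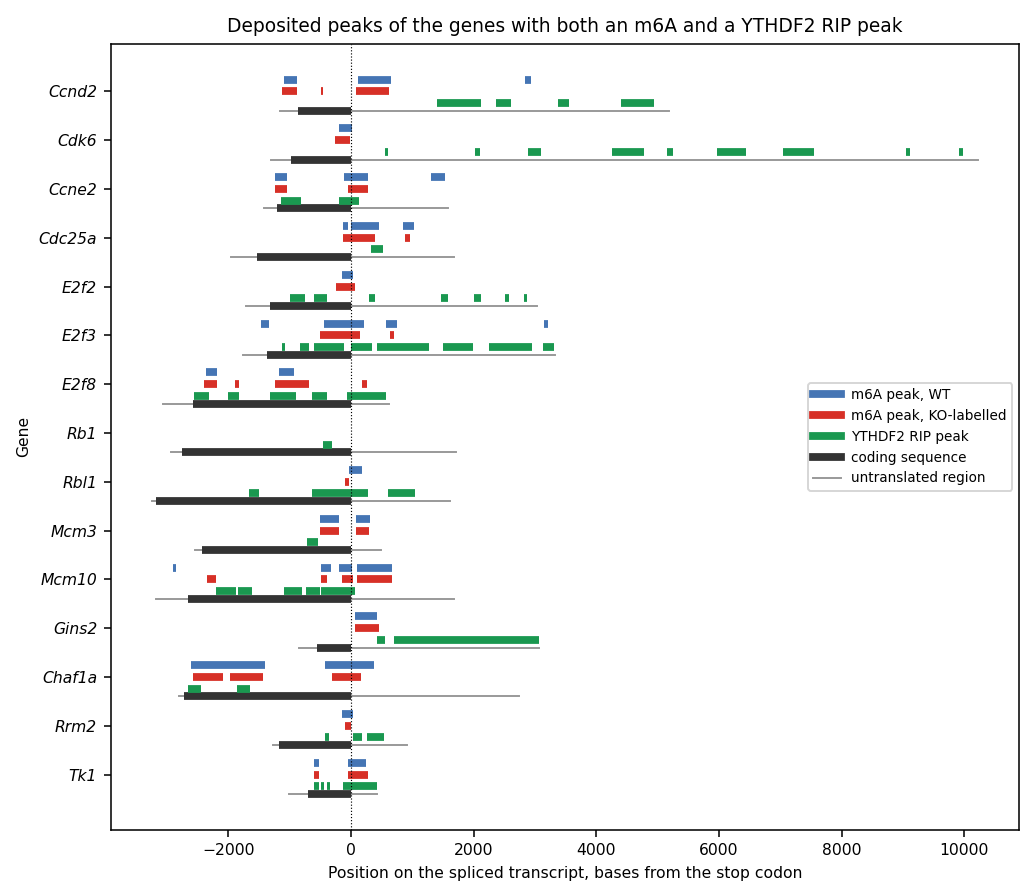
Deposited peaks on the spliced transcript with the longest coding sequence, for the genes with both a WT m6A and a RIP peak. The x axis is the distance in bases from the stop codon, and a peak is drawn only as far as it lies on that transcript. Blue and red bars, the m6A peaks of WT and KO-labelled cells, mostly coincide, and many lie at the stop codon. Green bars, RIP peaks, spread along coding sequence and 3′ UTR, with 9 in the 3′ UTR of Cdk6.

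Median fold changes of the 38 lay close together across peak classes, with no test made of that. The 15 genes with RIP and WT m6A peaks had a median log2 fold change of 0.53 (4 called higher), the 16 with a WT m6A peak alone 0.54 (6 called), the 2 with a RIP peak alone 0.54 (0 called) and the 5 with neither 0.51 (2 called). Over all genes tested, genes with both had a median of 0.09 and 5.32% were called higher, and genes with neither had -0.11 and 1.37%. Genes with a WT m6A peak alone had 0.01 and 3.38%, and those with a RIP peak alone -0.0002 and 2.92%. These classes were not matched for expression, on which the listing of a peak depends. Some peaks lie in exons of a gene on the other strand. Both RIP peaks of Gins2, with 2484 of their 2484 bases, lie in exons of Gse1, the WT m6A peak of Cdk4 (388 of 388 bases) lies in exons of Tspan31, and the WT m6A peak of Rb1 (60 bases) lies in exons of Lpar6. The source strand of those peaks was not tested.

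As examples of m6A sequence in these transcripts, stretches are given from the WT m6A peaks that share bases with a RIP peak and have the lowest deposited score, 1 per gene. The stretches of Chaf1a and Gins2 lie outside the RIP peaks, those of Ccne2 and E2f3 partly inside, and that of Tk1 inside. They were read from GENCODE M21 transcripts (GRCm38, the assembly of mm10), 5′ to 3′ on the mRNA strand. Capitals mark the 5-base words that fit the m6A consensus (a base other than C, then A or G, then A, then C, then a base other than G). Chaf1a, chr17:56047358-56047557, plus strand, is 200 bases of coding sequence at the centre of its 1198-base peak, between its RIP peaks. Tk1, chr11:117815841-117815870, minus strand, is a 30-base stretch of the 3′ UTR within both a WT m6A and a RIP peak. Gins2, chr8:120581365-120581394, minus strand, is a stretch of the 3′ UTR in a peak that touches a RIP peak by 1 base. Ccne2, chr4:11192704-11193036, plus strand, is spliced over 3 exonic blocks and opens with a start codon. This stretch was read from another Ccne2 transcript than the one used to place peaks. That transcript holds 56.6% of the peak's bases, beside 48.3%. E2f3, chr13:29909925-29910124, minus strand, lies in coding sequence ahead of the stop codon.
Chaf1a: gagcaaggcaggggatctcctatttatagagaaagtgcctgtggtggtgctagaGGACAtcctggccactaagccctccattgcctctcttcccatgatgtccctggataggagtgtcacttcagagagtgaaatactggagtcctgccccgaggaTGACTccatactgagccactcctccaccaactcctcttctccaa
Tk1: acaatgtaccttGAACAggctgccactcgc
Gins2: tgaatttcgtctTAACAtgatttaggaaga
Ccne2: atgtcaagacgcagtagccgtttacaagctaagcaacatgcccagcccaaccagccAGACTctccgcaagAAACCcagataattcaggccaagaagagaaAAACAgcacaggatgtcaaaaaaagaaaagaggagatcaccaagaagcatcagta
E2f3: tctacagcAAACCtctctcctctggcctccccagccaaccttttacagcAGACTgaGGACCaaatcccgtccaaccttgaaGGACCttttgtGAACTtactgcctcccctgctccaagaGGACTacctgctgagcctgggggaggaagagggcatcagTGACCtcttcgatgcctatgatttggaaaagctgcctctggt

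The E2f3 window held 7 such words, among them 1 GGACT, a frequent form of the consensus in mammals. Chaf1a held 2, Ccne2 3, and Tk1 and Gins2 1 each in stretches of 30 bases. Those 2 peaks as a whole held 1 GGACT each, outside the stretch shown. Over the 201 bases around each peak centre, at least 1 consensus word was found in 48 of the 50 WT m6A peaks of the 38 genes that could be read (96%, beside 98.9% over all genes). GGACT on the mRNA strand was found in 12 (24%, beside 28.2%), and its reverse complement AGTCC, a control, in 11 (22%, beside 16.4%). In RIP peaks GGACT was found in 8 of 67 (11.9%, beside 17.9%) and AGTCC in 17 (25.4%, beside 17.4%). A word in a window is a match of letters and not a mapped site.

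Because E2F factors act on many of these promoters, the 250 bases before and 50 bases after each RefSeq gene start (GRCm38.p6) were searched on both strands for TTTCCCGC, TTTCGCGC, TTTGCCGC and TTTGGCGC, words of the E2F consensus, of which some can overlap each other's reverse complement. A window was given for 31 of the 38 genes, and 16 of them (51.6%) held a word, beside 4.46% of the 11380 tested genes with a window and 2.26% of all 32851 windows. Of the 9 called genes with a window, 1 held a word (11.1%). The 16 genes with a word had a median log2 fold change of 0.50 (1 called higher), and the 15 without one 0.69 (8 called higher). Over all genes tested, 2.99% were called higher. Only these exact words in these windows were searched, so a gene without one is not shown to lack an E2F site. A link between words and calls was not tested. Pola1 was the called gene with a word. Its promoter up to the gene start is shown, chrX:93632156-93632299, minus strand, with the word in capitals.
Pola1: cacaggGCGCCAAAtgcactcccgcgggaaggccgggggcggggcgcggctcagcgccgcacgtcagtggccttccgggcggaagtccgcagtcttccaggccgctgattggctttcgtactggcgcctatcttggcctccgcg

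Among the 9 licensing genes, Mcm4 had no window to search, and the window of Mcm2 held no word. The other 7 held a word, and none of them passed the threshold, beside 2.99% of all genes called higher. Their windows of up to 30 bases are shown for that contrast, a choice made after the values were seen, each read on the strand of the gene, with words in capitals. They are Orc1 (chr4:108579416-108579445, plus), Cdc6 (chr11:98908002-98908031, plus), Cdt1 (chr8:122568036-122568064, plus), Mcm3 (chr1:20820275-20820304, minus), Mcm5 (chr8:75109345-75109374, plus), Mcm6 (chr1:128359797-128359826, minus) and Mcm7 (chr5:138172030-138172059, minus).
Orc1: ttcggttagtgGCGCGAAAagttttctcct
Cdc6: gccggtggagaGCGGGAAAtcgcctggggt
Cdt1: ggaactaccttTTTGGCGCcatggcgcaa
Mcm3: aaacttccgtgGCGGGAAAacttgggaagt
Mcm5: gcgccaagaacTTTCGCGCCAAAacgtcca
Mcm6: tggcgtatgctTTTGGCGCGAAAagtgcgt
Mcm7: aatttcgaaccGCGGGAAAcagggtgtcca
The Mcm5 and Mcm6 windows each held 2 overlapping words, 1 per strand. The word of Cdt1 lay on the gene's own strand, and those of Orc1, Cdc6, Mcm3 and Mcm7 on the other. A match says only that these letters are in the window.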

How the data were processed

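The 38 genes and the other gene lists were chosen with earlier results of these data known. Read counts per gene, whole numbers without normalization, were deposited by the authors for the 6 input libraries, with 3 peak lists whose score, from its range, was read as a p-value of the authors' peak calls. The submitters' processing notes name HISAT2, HOMER, ChIPseeker and mm10 without saying what each did. The sources used here name no counter, strand setting or peak caller. The count table held 0 columns of other samples and 0 rows without a gene name. Genes kept by filterByExpr (18969) were tested in R 4.3.3 with edgeR 4.0.16, using TMM factors, a quasi-likelihood F test without covariates and Benjamini-Hochberg adjustment over all of them at 0.05. DESeq2 1.42.0 was an alternative. CPM uses TMM-scaled library sizes, RPKM divides it by the joined length of a gene's annotated exons, and fold changes are KO-labelled over WT. The SE of a log2 fold change is its size over the square root of F. On simulated counts of 18466 genes with the means and library sizes of this comparison, the test recovered 73% of 2-fold and 95% of 4-fold changes. It made 184 calls, 16 on unchanged genes, and 0 calls when no gene was changed. Simulated libraries of a group differed only by independent noise per gene, without the shifts of whole libraries seen here. These rates may not hold for the real libraries.

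A count of 0 allows up to 3 counts, which is 0.0589 to 0.066 CPM in these libraries. Same-numbered libraries deviated together weakly (correlations 0.049, 0.115 and 0.05), so the numbers were not taken as pairs. An effect shared by the libraries numbered 1 was not tested. Peaks were placed on the GENCODE M21 transcript with the longest coding sequence, by the middle of their bases on that transcript. An overlap needs 1 exonic base on the same strand, and intervals are exact Clopper-Pearson intervals (95%). Libraries were given per value for genes past the threshold, the extremes of each role and the best known gene of each role. Alternatives were other scalings, no filter, DESeq2, a replicate block, each library left out, a stricter peak score and an overlap of 50% of a peak. Leaving out both libraries numbered 1 was added after the data were seen. Signal of single immunoprecipitated libraries was not used here.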

Additional observations from a re-analysis of the deposited data

How the results depend on the processing

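The fitted fold change was above 0 in the same number of the 38 genes (35) under every scaling, filter, tool and left-out library tried, and no gene of the 38 changed sign. The 12 calls were fewer or more under several settings. Without a filter on low counts, edgeR called 4 of the 38 higher (all genes 70 higher and 41 lower, other replication genes 1 higher). DESeq2 called 26 (all genes 2141 and 1133, other replication genes 23 higher and 1 lower). With upper-quartile factors, which moved the median of all genes to -0.09, all genes gave 348 higher and 395 lower, against 568 and 293, and other replication genes 5 higher. With single libraries left out, the 38 gave 0 to 30 higher and 0 to 1 lower, all genes 0 to 3782 higher and 0 to 3144 lower, and other replication genes 0 to 38 higher and 0 to 2 lower. With both libraries numbered 1 left out, an alternative chosen after seeing the data, 33 of the 38 were higher and 2 lower (Ccnd2 and Cdk4), all genes 4758 and 4126, other replication genes 43 and 2. With the replicate number as a block, although the numbers were not taken as pairs, 5 of the 38 were higher, 4 of them among the 12 (all genes 45 higher and 26 lower, other replication genes 4 higher). The cause of these differences was not tested. Counts of genes with a peak did not move under a stricter deposited score. When 50% of a peak's exonic bases had to be covered, 11 WT m6A peaks of the 38 genes were overlapped by RIP peaks, against 17. Changes below 2-fold were not simulated, and the 12 called genes had fitted folds of 1.41 to 1.92.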
